A study of Mus musculus with 2 samples.

Results

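Collagens are the proteins that give tissue its tensile scaffold, and the genes described here are the 44 mouse collagen chains whose symbols have the form Col, a type number, the letter a and a chain number. They were taken by symbol alone from the 28692 features counted in each library, and all 44 had at least 1 molecule counted. Levels are given across classes of mesenchymal stromal cells (MSC) from intestinal grafts, with the chains sorted by the structure they build: 11 fibrillar, 6 basement membrane (type IV), 6 microfibrillar (type VI), 9 FACIT, 4 transmembrane, 3 short-chain network, 2 multiplexin, 1 anchoring fibril and 2 other chains.

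Each collagen molecule is a triple helix of 3 chains, made from the same or from different genes. Fibrillar collagens assemble outside the cell into banded fibres, type IV chains form the network of basement membranes under epithelium, around muscle cells and around capillaries, and type VI chains form beaded microfilaments close to cells. FACIT and multiplexin chains sit on fibrils or at the border of basement membranes and do not form fibres alone. In the gut wall, fibroblasts (FB) make most of the interstitial fibres, while pericytes and smooth muscle cells (SMC) are wrapped in basement membrane.

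The cells came from small intestine (SI) and large intestine (LI) of mid-gestation embryos sired by EYFP males of C57BL/6 background, which carry a yellow fluorescent protein, on C57BL/6Nrj females. The embryonic gut was grafted into adult wild-type mice, beneath the capsule of the kidney, and stayed there for 4 weeks. YFP+ Itgb1+ cells negative for CD45, Ter119, BP3, CD31, EpCAM and L1CAM were then sorted, a gate meant to leave out host, blood, endothelial, epithelial and nerve cells. The LI library pooled cells of more than 1 colonic graft, pooling is not stated for SI, and there was 1 library of each kind, so no comparison has a replicate check and no test or p-value is given. All intervals are 95% intervals of counting error only, exact Poisson for a level and from an exact binomial split of the molecules for a ratio.

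In LI grafts 9873 of 11568 barcodes, and in SI grafts 7910 of 9631, had at least 500 genes and at most 10% mitochondrial unique molecular identifiers (UMIs, each marking 1 captured RNA molecule). The kept cells had a median of 5288 UMIs in LI and 5682 in SI, and 26 barcodes occurred in both libraries. Cells were gated by how many of a class's marker genes they carried, and no collagen was a marker: 7768 LI and 5618 SI cells were fibroblasts, 874 and 1485 were mural cells (pericytes, pericyte/SMC and SMC together), 374 and 372 carried markers of more than 1 lineage and were set apart, and 491 and 302 met no gate. Fibroblasts were PDGFRAhi FB (849 LI and 526 SI cells, with Bmp5 and Foxl1 among their markers), Pi16 FB (824 and 446), CD81 FB (2323 and 2189, Cd81 and Grem1), Fgfr2 FB (2071 and 1176, Fgfr2 and Adamdec1) and other FB (1701 and 1281). The other FB met no subset gate, or met the CD81 FB and Fgfr2 FB gates with equal numbers of markers. Single markers and list sums overlapped between the subsets: Adamdec1 had 9669 CPM in LI PDGFRAhi FB against 7256 in LI Fgfr2 FB, and Grem1 had 756 in LI other FB against 639.7 in LI CD81 FB and 1219.6 in SI SMC against 1108 in SI CD81 FB. The summed Fgfr2 FB list was 12487 CPM in LI PDGFRAhi FB and 11136 in LI Fgfr2 FB, and the summed CD81 FB list was higher in Pi16 FB (4574 in LI and 6777 in SI) than in CD81 FB (3649.5 and 4547). Mural cells were pericytes (401 and 646, Rgs5 and Notch3), cells with both marker sets called pericyte/SMC (159 and 470) and SMC (314 and 369, Myh11 and Actg2). Interstitial cells of Cajal (ICC, 281 and 41 cells, Kit) are described apart, since the SI gate held under 50 cells, and the mesothelial gate (31 and 22 cells) is not used because its cells carried 12032 and 8728 CPM of Dcn, the fibroblast proteoglycan decorin. Median depth over the 8 compared classes ran from 3947 to 9433 UMIs per cell in LI and from 3899.5 to 9484.5 in SI.

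Levels are pooled CPM: the UMIs of a gene in all cells of a class were added up and given per 1000000 UMIs of that class. Because a UMI counts a molecule once whatever its length, levels are not divided by gene length. Genes are set against each other only as shares or ratios of UMIs, and how well each RNA is captured may differ. Fewer expressing cells and less RNA per cell cannot be told apart in a pooled level. As a gauge of free RNA, the 39 LI and 18 SI cells in the immune gate, which should make no collagen, held 1148 CPM (interval 1013 to 1296) and 523 CPM (380.1 to 702) of all collagens together, at median depths of 2891 and 2674 UMIs. Cells of the immune gate that also met the fibroblast gate had been set apart, so this gauge may lie too low.

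Collagen RNA made up 3.06% of all UMIs in LI fibroblasts and 3.95% in SI fibroblasts, against 1.21% and 1.17% in mural cells. Among fibroblasts the share was highest in CD81 FB, at 3.43% in LI and 4.63% in SI, and lowest in PDGFRAhi FB, at 2.59% and 2.66%. The same 3 genes, Col3a1, Col1a2 and Col1a1, led in every fibroblast class of both libraries and held 78.3% of the collagen UMIs of LI fibroblasts and 80.0% of those of SI fibroblasts. In pericytes the leading 3, in differing order, were Col4a1, Col3a1 and Col4a2, with 61.4% in LI and 56.8% in SI. Type IV chains took 40.1% and 34.5% of the collagen UMIs of pericytes, but 2.70% and 1.83% of those of CD81 FB.

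**Figure D1:**
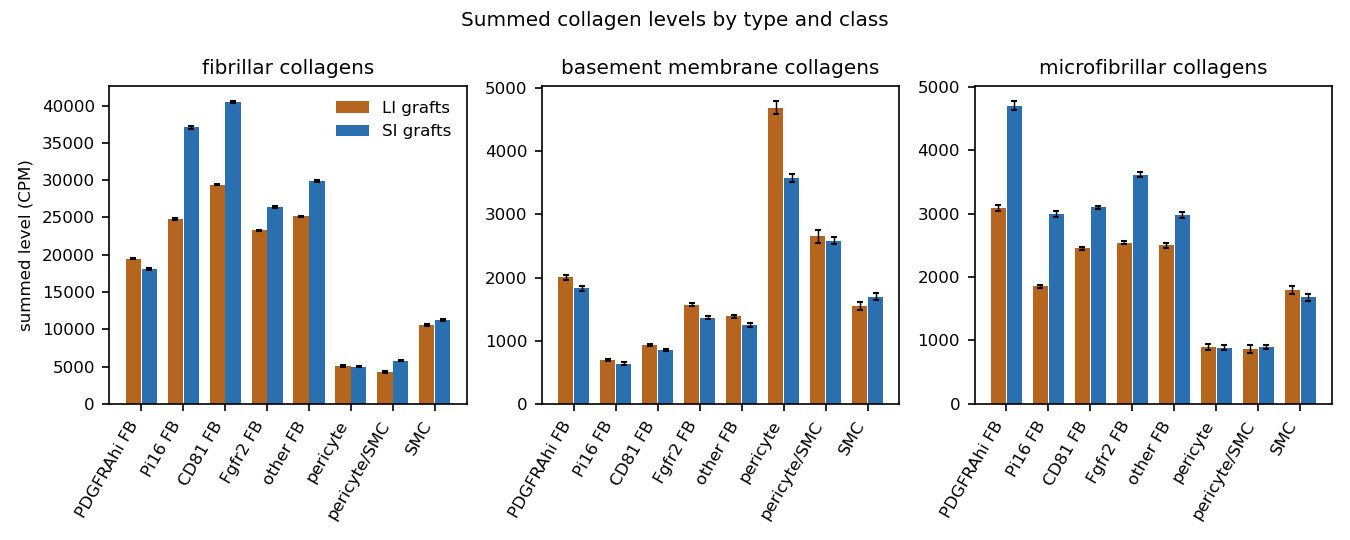
Summed level (CPM) of the fibrillar, basement membrane and microfibrillar collagens in 8 stromal classes, with LI grafts in brown and SI grafts in blue; bars are pooled levels of 1 library each and error bars are exact 95% Poisson intervals. Fibrillar chains peak in CD81 FB (29399.7 and 40487 CPM), basement membrane chains in pericytes (4686 and 3574) and microfibrillar chains in PDGFRAhi FB (3087 and 4701).

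Of the 44 chains, 28 reached 10 CPM in at least 1 of the 8 classes in both libraries, 4 more did so in 1 library, and 12 in neither. For 22 of these 28, the class with the highest level was the same in LI and SI grafts. Neither this share nor the share led by each class was computed over all genes. The counts are therefore not read as particular to collagens. PDGFRAhi FB led for 8 chains in both (Col4a5, Col4a6, Col6a1, Col6a2, Col6a4, Col12a1, Col24a1 and Col27a1), CD81 FB for 4 (Col1a1, Col1a2, Col3a1 and Col5a2), pericytes for 4 (Col4a1, Col4a2, Col5a3 and Col28a1), Pi16 FB for 3 (Col8a1, Col8a2 and Col14a1), Fgfr2 FB for 2 (Col6a5 and Col15a1) and SMC for 1 (Col23a1). The 6 chains whose leading class differed between the libraries were Col5a1, Col6a3, Col11a1, Col13a1, Col16a1 and Col18a1.

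**Figure D2:**
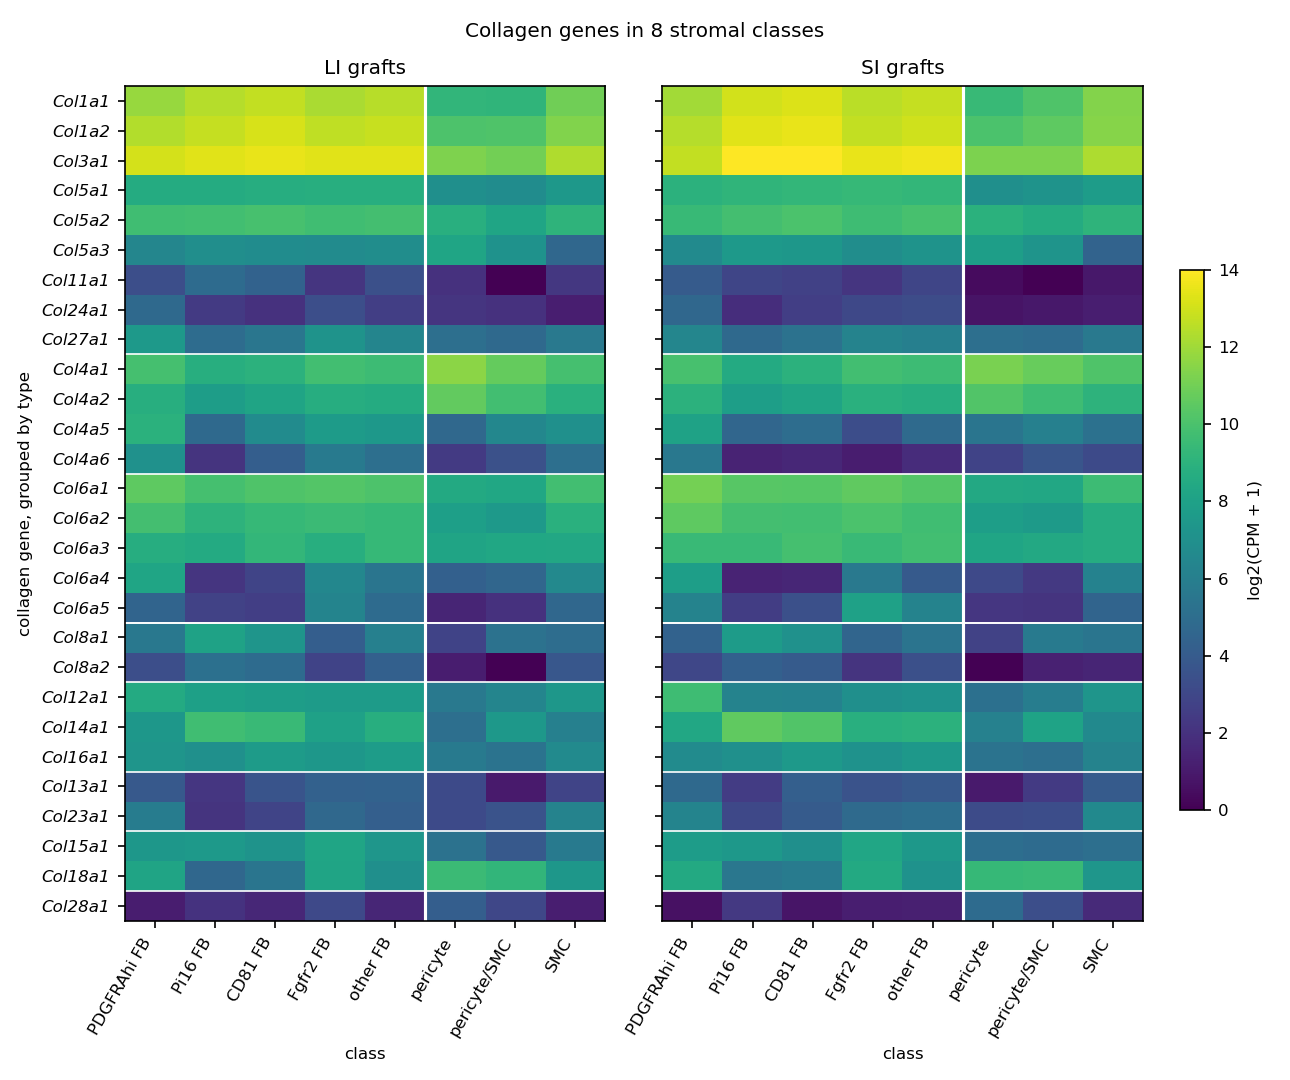
Level, as log2(CPM + 1), of the 28 collagen genes (rows, grouped by type) at 10 CPM or more in both libraries, in 8 stromal classes (columns) of LI grafts (left) and SI grafts (right); colour runs from 0 to 14. The top rows (Col1a1, Col1a2, Col3a1) are brightest in the 5 fibroblast classes left of the white line, Col4a1 and Col4a2 in pericytes, and Col4a5, Col4a6 and Col6a4 in PDGFRAhi FB.

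Types I and III are the main fibres of loose connective tissue. Col1a1, which encodes the α1 chain of type I, had 3707 CPM in PDGFRAhi FB, 5556 in Pi16 FB, 6841 in CD81 FB, 4761 in Fgfr2 FB and 5680.4 in other FB, against 589 in pericytes, 578 in pericyte/SMC and 2002 in SMC of LI grafts. Its levels in SI grafts were 4262 CPM in PDGFRAhi FB, 8419 in Pi16 FB, 9707 in CD81 FB, 5906 in Fgfr2 FB and 6937 in other FB, against 698 in pericytes, 1138 in pericyte/SMC and 2693 in SMC. Every fibroblast class lay above every mural class in both libraries, and within each set the CD81 FB and the SMC were highest. Col3a1, the only chain of type III, ranged over the fibroblast classes from 8825 (PDGFRAhi FB) to 12009 CPM (CD81 FB) in LI and from 6819 to 16992 in SI, with the same classes at the ends. In mural cells it ran from 2042 CPM (pericyte/SMC) to 5102 (SMC) in LI and from 2369 (pericytes) to 4898 (SMC) in SI. The ratio of Col3a1 to Col1a1 UMIs was 1.76 (interval 1.74 to 1.77) in LI CD81 FB and 4.31 (4.02 to 4.62) in LI pericytes, and 1.75 and 3.396 in the same SI classes, so type III weighed more against type I in pericytes of both grafts. Col1a2, the α2 chain of type I, followed Col1a1: the ratio of Col1a1 to Col1a2 UMIs stayed between 0.514 and 0.785 over the 8 LI classes and between 0.660 and 0.945 over the 8 SI classes.

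Type V chains join the large fibres and help to set their thickness. Col5a1, the α1 chain of type V, had 388 to 437 CPM over the LI fibroblast classes and 111 to 177 over the mural classes, and 509 to 668 and 125 to 212 in SI. Col5a2, the α2 chain of type V, ranged from 299.8 CPM in pericyte/SMC to 962 in CD81 FB of LI and from 394 to 1031 in the same SI classes. Col5a3, the α3 chain, was instead highest in pericytes, which had 296 CPM in LI and 228 in SI, and it was lowest in SMC, at 25.03 and 20.7. The log2 ratio of pericytes over SMC was 3.51 (interval 3.06 to 3.99) in LI and 3.404 (2.997 to 3.84) in SI. Fibroblast classes lay between, at 86.2 to 119.6 CPM in LI and 102 to 190.2 in SI. Thus Col5a3 led in pericytes, while every fibroblast class lay above every mural class for Col5a1 and Col5a2.

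Among the rarer fibrillar chains, Col27a1 reached 188 CPM in LI PDGFRAhi FB and 85.4 in SI PDGFRAhi FB, followed by Fgfr2 FB at 145 and 75.3. The LI immune gate had 44.1 CPM of it (10 UMIs), so its highest LI level was only 4.26 times this gauge of free RNA. Pooled LI mural cells, at 37.7 CPM, lay below that gauge. Col24a1 stayed under 10 CPM in 7 of the 8 classes and reached that level in PDGFRAhi FB, at 26.6 CPM in LI and 24.7 in SI. Col11a1, a type XI chain best known from cartilage, peaked in different classes: 28.2 CPM in Pi16 FB of LI, against 6.74 in SI, and 15.3 in PDGFRAhi FB of SI, against 9.12 in LI.

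To ask which chains separate fibroblasts from mural cells, all fibroblast classes were pooled and set against the 3 mural classes. Of the 24 collagens at 10 CPM or more in 1 of the groups in each library, 14 were at least 2-fold higher in fibroblasts in both grafts, where 5.96% of 8765 genes met the same rule. Another 3 of the 24 were at least 2-fold higher in mural cells in both, against 7.07% of the 8765 genes, and the 20 collagens under that level were not compared. Col8a2 and Col13a1 reached 10 CPM through fibroblasts alone in both libraries, and Col6a5 did so in SI, so for them a difference was in part built into the count. The median log2 ratio over the collagens tested was 1.14 in LI and 1.22 in SI, against -0.10 and -0.11 over all genes tested. The higher chains were 4 of 7 fibrillar (Col1a1, Col1a2, Col3a1 and Col5a1), 3 of 5 microfibrillar (Col6a1, Col6a2 and Col6a5), all 3 FACIT (Col12a1, Col14a1 and Col16a1), both short-chain (Col8a1 and Col8a2), 1 of 2 transmembrane (Col13a1) and 1 of 2 multiplexin (Col15a1); the 3 mural ones were Col4a1, Col4a2 and Col18a1. None of these 3 was 2-fold higher in SMC alone than in pooled fibroblasts, in either library. The 1 collagen that was, in each library, was Col23a1, at 75.7 against 17.2 CPM in LI and 98.2 against 25.9 in SI. For Col1a1 the pooled levels were 5647 CPM in fibroblasts and 1112 in mural cells of LI, a log2 ratio of 2.34 (2.30 to 2.39), and 7824 and 1399 in SI, a log2 ratio of 2.48 (2.46 to 2.51). Col5a2 missed the 2-fold rule narrowly, with log2 ratios of 0.98 and 0.99. Under classes taken from clusters of cells instead of gates, Col6a1, Col6a2, Col6a5, Col8a1, Col12a1 and Col13a1 fell under 2-fold in at least 1 library, as did Col6a1 and Col12a1 with looser gates, Col12a1 among female-called cells, and Col6a5 and Col13a1 with a pseudocount of 5 CPM.

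Fibroblast marker RNA was also counted in the mural gates. Dcn, itself a marker of the fibroblast gate, had 14053 CPM in fibroblasts and 1778 in mural cells of LI, a log2 ratio of 2.98, and 16572 and 1366 in SI, a log2 ratio of 3.599. Both ratios were larger than that of any of the 24 collagens in the same library. The summed level of the 8 fibroblast markers was 1125 to 5323 CPM over the mural classes and 11340.0 to 24887 over the fibroblast classes of LI, and 1264 to 5528 and 15851 to 29691 in SI, and no fibroblast marker was at 0 in a mural class. SMC were the mural class with the most fibroblast marker RNA in both libraries, and also the one with the most fibrillar collagen. Mural cells were set apart only at 6 or more of the 8 fibroblast markers, above the 4 that define the fibroblast gate. The part of fibroblast RNA in the mural levels was not tested. In the other direction, Rgs5, a pericyte gene, had 58.7 CPM in LI fibroblasts and 649.6 in SI fibroblasts, against 2677 and 2839 in mural cells, and Myh11, the smooth muscle myosin, 22.4 and 38.2 CPM in fibroblasts. The 11 pericyte markers summed to 165 to 349 CPM over the LI fibroblast classes and 158 to 1316 over the SI ones.

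**Figure D3:**
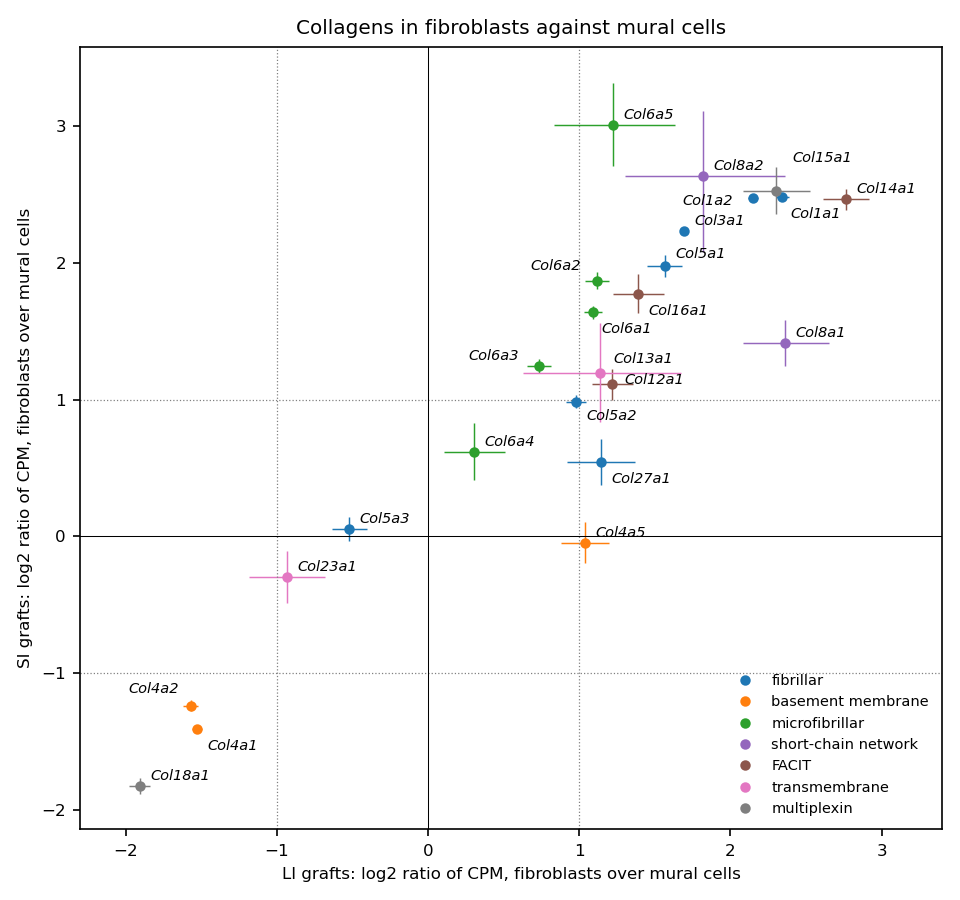
Log2 ratio of pooled CPM (with 1 CPM added) of all fibroblasts over mural cells in LI grafts (horizontal axis) and SI grafts (vertical axis) for the 24 collagens at 10 CPM or more; bars are 95% counting intervals, dotted lines mark 2-fold, and colour gives the collagen type. Col1a1, Col14a1 and Col15a1 sit in the upper right corner, and Col4a1, Col4a2 and Col18a1 in the lower left, while Col4a5 is on the fibroblast side only in LI (1.04 against -0.05 in SI).

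Col4a1 and Col4a2 encode the chains of the type IV collagen found in nearly every basement membrane. In LI grafts Col4a1 had 937 CPM in PDGFRAhi FB, 446 in Pi16 FB, 517 in CD81 FB, 882 in Fgfr2 FB and 781 in other FB, against 3043 in pericytes, 1673 in pericyte/SMC and 922 in SMC. In SI grafts it had 981 CPM in PDGFRAhi FB, 376 in Pi16 FB, 517 in CD81 FB, 880.4 in Fgfr2 FB and 788 in other FB, against 2327 in pericytes, 1704 in pericyte/SMC and 1119 in SMC. Pericytes stood highest in both, pericyte/SMC second, and SMC overlapped with PDGFRAhi FB in level in LI grafts (876 to 971 against 911 to 963 CPM as intervals). Among fibroblasts, PDGFRAhi FB and Fgfr2 FB had higher Col4a1 than Pi16 FB and CD81 FB. Col4a2 followed at roughly constant proportion, with 1599.9 CPM in LI pericytes, 1189.8 in SI pericytes and 221 and 229 in Pi16 FB. The ratio of Col4a1 to Col4a2 UMIs ran only from 1.80 (interval 1.74 to 1.87) to 2.11 (2.004 to 2.21) over the LI classes and from 1.64 to 2.14 over the SI classes. The fibroblast over mural log2 ratio was -1.53 in LI and -1.41 in SI for Col4a1 and -1.57 and -1.24 for Col4a2. The genes lie on chromosome 8 (mm10) on opposite strands and are read outward from starts at 11312826 (Col4a1) and 11312805 (Col4a2) in the GENCODE annotation, so that they overlap by some bases at their starts.

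The other type IV genes are also arranged in pairs that start back to back. Col4a3 and Col4a4, chains known from the kidney glomerulus, start 72 bases apart on chromosome 1 and were low in all 8 classes, at most 11.8 and 8.32 CPM, both in PDGFRAhi FB of SI. Col4a5 and Col4a6, which occur together in the basement membranes of smooth muscle and some epithelia, start 1309 bases apart on chromosome X and are also read outward. Because both were highest in PDGFRAhi FB while Col4a1 and Col4a2 were highest in pericytes, the bases just before each annotated start are shown, in the direction of transcription (RefSeq promoters, GRCm38.p6). Windows hold up to 250 bases and end where the first exon of either RefSeq or GENCODE begins. Capitals mark matches to CCAAT or to GGGCGG on either strand.
Col4a6, chrX:141474077-141474326, minus strand: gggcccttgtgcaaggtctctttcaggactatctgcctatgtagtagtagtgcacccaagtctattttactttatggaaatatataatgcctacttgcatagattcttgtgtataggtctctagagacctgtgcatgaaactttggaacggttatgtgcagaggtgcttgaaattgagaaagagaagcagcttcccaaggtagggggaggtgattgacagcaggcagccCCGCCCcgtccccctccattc
Col4a5, chrX:141475169-141475384, plus strand: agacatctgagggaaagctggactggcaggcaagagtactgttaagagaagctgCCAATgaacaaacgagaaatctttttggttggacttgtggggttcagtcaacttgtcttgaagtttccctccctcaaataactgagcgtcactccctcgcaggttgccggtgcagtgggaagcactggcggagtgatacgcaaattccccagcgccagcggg
Neither holds TATAAA. The Col4a6 window holds 1 GGGCGG match, found in 32.7% of 32851 promoter windows of the same 250 bases, and the Col4a5 window 1 CCAAT match, found in 30.5% of windows of its 216 bases.

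Levels of Col4a5 in LI grafts were 485 CPM in PDGFRAhi FB, 26.8 in Pi16 FB, 105 in CD81 FB, 204 in Fgfr2 FB and 173 in other FB, against 26.0 in pericytes, 89.3 in pericyte/SMC and 128 in SMC. In SI grafts they were 266 CPM in PDGFRAhi FB, 23.5 in Pi16 FB, 31.1 in CD81 FB, 8.98 in Fgfr2 FB and 27.6 in other FB, against 41.9 in pericytes, 67.4 in pericyte/SMC and 36.6 in SMC. PDGFRAhi FB were the highest class in both libraries and Pi16 FB among the lowest, but Fgfr2 FB were second in LI and lowest in SI. Col4a6 had 135 CPM (interval 125 to 146) in LI PDGFRAhi FB and 48.3 (41.5 to 55.9) in SI PDGFRAhi FB. In Fgfr2 FB it had 52.6 CPM in LI and 1.14 in SI, and in Pi16 FB 3.31 and 1.63. The ratio of Col4a5 to Col4a1 UMIs spread far more than that of Col4a1 to Col4a2, from 0.00855 in pericytes to 0.518 in PDGFRAhi FB of LI and from 0.0102 in Fgfr2 FB to 0.271 in PDGFRAhi FB of SI. Both lowest ratios rested on few Col4a5 UMIs (44 in LI and 63 in SI), at levels within the intervals of the immune gate. The ratio of Col4a5 to Col4a6 UMIs was itself less even, at 3.59 to 9.0 over the LI classes and 4.72 to 15.7 over the SI classes. By their leading class the type IV chains split into Col4a1 and Col4a2, led by pericytes, and Col4a5 and Col4a6, led by PDGFRAhi FB, a class known to lie just under the epithelium.

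**Figure D4:**
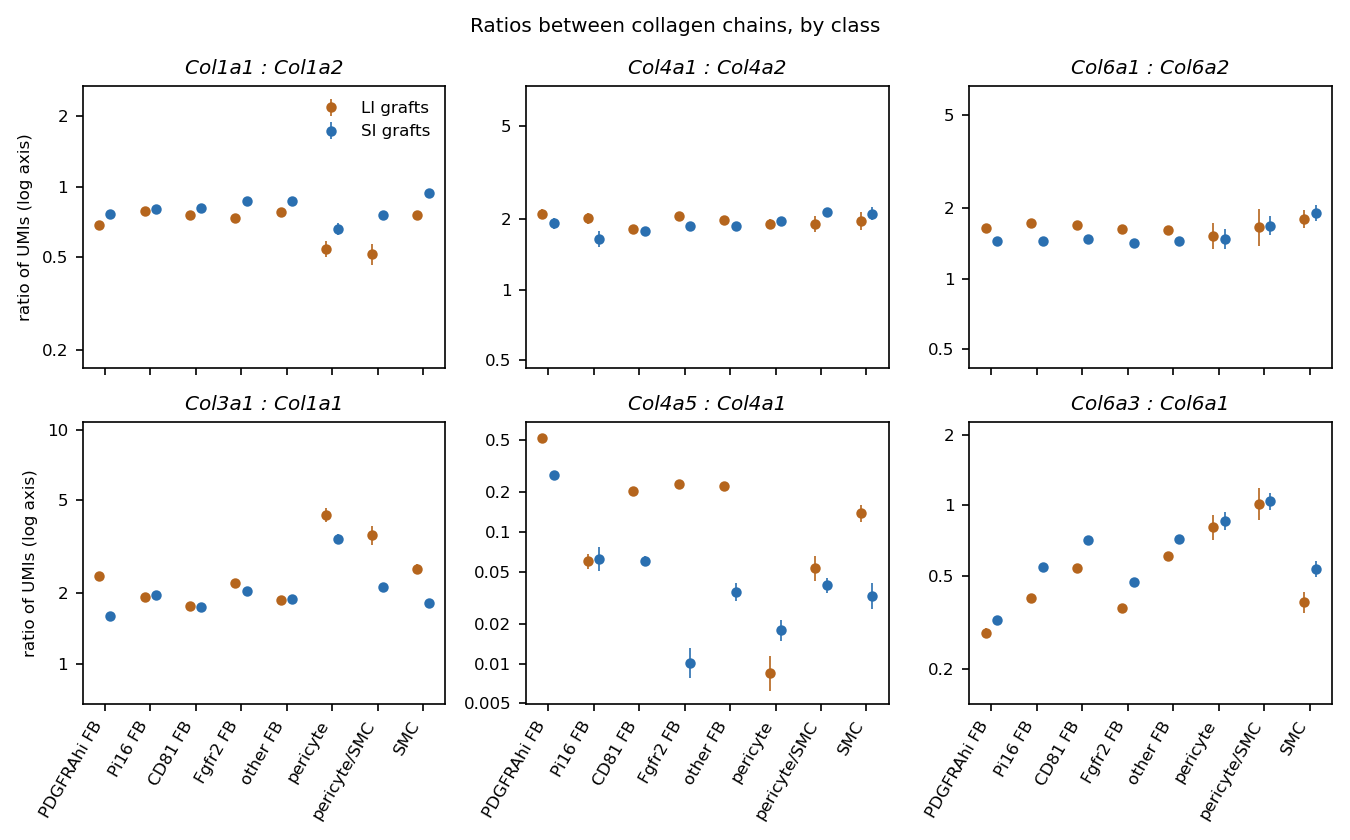
Ratio of UMIs between pairs of collagen chains (log axes) in 8 stromal classes of LI grafts (brown) and SI grafts (blue), with exact 95% counting intervals. Col1a1 to Col1a2, Col4a1 to Col4a2 and Col6a1 to Col6a2 stay nearly level over the classes, while Col3a1 to Col1a1 rises in pericytes (4.31 in LI), Col6a3 to Col6a1 rises in pericyte/SMC (1.01 in LI) and Col4a5 to Col4a1 is highest in PDGFRAhi FB of both libraries.

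Type VI collagen is assembled from an α1 chain (Col6a1), an α2 chain (Col6a2) and 1 variable chain encoded by Col6a3, Col6a4, Col6a5 or Col6a6. Col6a1 in LI grafts was at 1463 CPM in PDGFRAhi FB, 931 in Pi16 FB, 1147 in CD81 FB, 1200.0 in Fgfr2 FB and 1089.6 in other FB, against 358 in pericytes, 319.6 in pericyte/SMC and 862 in SMC. In SI grafts it was at 2189.8 CPM in PDGFRAhi FB, 1331 in Pi16 FB, 1289 in CD81 FB, 1521 in Fgfr2 FB and 1198 in other FB, against 346 in pericytes, 337 in pericyte/SMC and 769 in SMC. PDGFRAhi FB were highest in both libraries, and SMC were the highest mural class. Col6a2 kept nearly the same proportion, with a ratio of Col6a1 to Col6a2 UMIs of 1.53 to 1.80 over the LI classes and 1.43 to 1.91 over the SI classes. The variable chain changed with the class. Col6a3 was highest in other FB (660.4 CPM) and CD81 FB (619) of LI and in CD81 FB (922) of SI, and its ratio to Col6a1 went from 0.285 in PDGFRAhi FB to 1.01 in pericyte/SMC of LI and from 0.323 to 1.04 in the same SI classes.

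Col6a4 was highest in PDGFRAhi FB, with 294 CPM (interval 279.6 to 309) in LI and 228 (213 to 244) in SI. The next classes were SMC, at 94.5 and 71.9 CPM, and Fgfr2 FB, at 88.7 and 48.8, while Pi16 FB had 3.42 and 1.63. Col6a5 was instead highest in Fgfr2 FB, with 77.5 CPM (72.3 to 82.9) in LI and 259.5 (248 to 272) in SI. PDGFRAhi FB had 21.8 and 74.6 CPM of it. Col6a6, the third gene of this row, reached 10.7 CPM in SI Pi16 FB and 3.86 in LI Pi16 FB, its highest class in both. So the 3 neighbouring genes had their highest levels in 3 different fibroblast classes. They lie on chromosome 9 on the same strand, with 28810 bases between Col6a4 and Col6a5 and 27917 between Col6a5 and Col6a6. The bases before the annotated starts of Col6a5 and Col6a4 are shown, since these genes differed in both class and graft, with the same motifs in capitals.
Col6a5, chr9:105960644-105960893, minus strand: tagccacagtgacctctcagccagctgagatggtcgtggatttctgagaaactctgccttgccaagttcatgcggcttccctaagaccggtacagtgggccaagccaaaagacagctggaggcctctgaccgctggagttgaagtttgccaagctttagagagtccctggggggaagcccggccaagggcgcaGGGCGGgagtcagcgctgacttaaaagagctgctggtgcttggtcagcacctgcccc
Col6a4, chr9:106096784-106096941, minus strand: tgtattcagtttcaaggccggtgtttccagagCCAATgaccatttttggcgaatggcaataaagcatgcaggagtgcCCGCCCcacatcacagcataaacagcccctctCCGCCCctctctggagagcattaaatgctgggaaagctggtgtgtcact
The Col6a4 window of 158 bases holds 1 CCAAT match (21.2% of windows of that length) and 2 GGGCGG matches (17.8%), and the Col6a5 window of 250 bases holds 1 GGGCGG match and no CCAAT match. A match is a run of letters and says nothing of binding.

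FACIT collagens decorate fibrils. Col14a1 (type XIV) was highest in Pi16 FB, at 849 CPM in LI and 1506 in SI, then in CD81 FB, at 723 and 1190.2. PDGFRAhi FB had 169.8 and 332 CPM and pericytes 33.1 and 69.3. Col12a1 (type XII) was led by PDGFRAhi FB instead. In LI grafts Col12a1 had 380.3 CPM in PDGFRAhi FB, 244 in Pi16 FB, 222 in CD81 FB, 207 in Fgfr2 FB and 204 in other FB, against 50.3 in pericytes, 80.4 in pericyte/SMC and 168 in SMC. In SI grafts it had 810.5 CPM in PDGFRAhi FB, 76.7 in Pi16 FB, 73.3 in CD81 FB, 126 in Fgfr2 FB and 139.8 in other FB, against 35.2 in pericytes, 61.3 in pericyte/SMC and 158 in SMC. The other 4 LI fibroblast classes lay within 204 to 244 CPM, whereas SI PDGFRAhi FB stood far above the other SI classes. Of these 3, Col16a1 (type XVI) varied least among fibroblasts, from 128 to 215 CPM over the LI fibroblast classes and 106 to 188 over the SI ones, with 39.7 to 103 and 33.7 to 76.3 in mural classes.

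The multiplexins, Col15a1 and Col18a1, both sit at the edge of basement membranes and release fragments known to restrain vessel growth, yet they were placed differently. Col15a1 was highest in Fgfr2 FB, at 304 CPM (interval 294 to 315) in LI and 316 (303 to 329.6) in SI, and 145 and 126 in CD81 FB, the lowest fibroblast class. Mural classes had 13.9 to 54.4 CPM in LI and 28.9 to 34.0 in SI. Col18a1 had 293 CPM in PDGFRAhi FB, 25.04 in Pi16 FB, 42.8 in CD81 FB, 291 in Fgfr2 FB and 125 in other FB, against 757 in pericytes, 597 in pericyte/SMC and 167 in SMC of LI grafts. Its SI levels were 359 CPM in PDGFRAhi FB, 45.3 in Pi16 FB, 56.0 in CD81 FB, 355 in Fgfr2 FB and 139 in other FB, against 665 in pericytes, 723 in pericyte/SMC and 162 in SMC. It was thus highest in pericytes and pericyte/SMC, intermediate in PDGFRAhi FB and Fgfr2 FB, and lowest in Pi16 FB and CD81 FB.

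Col8a1 and Col8a2, short chains that form hexagonal networks around vessels, were highest in Pi16 FB. Col8a1 had 266 CPM there in LI and 205 in SI, against 5.91 and 5.75 in pericytes, and Col8a2 35.0 and 18.4 CPM, against 1.18 in LI pericytes and no UMI in SI pericytes, where 3 UMIs would be 1.01 CPM.

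Among the transmembrane chains, which span the cell membrane, Col23a1 was highest in SMC, at 75.7 CPM in LI and 98.2 in SI, next to PDGFRAhi FB at 58.7 and 78.4. Pericytes had 7.69 and 8.11 CPM of it. Col13a1 stayed at or below 26.6 CPM in the 8 classes. ICC, the Kit+ pacemaker cells of gut muscle, had more of it: 42.0 CPM (31.3 to 55.2) in LI and 160.2 (111 to 224, 34 UMIs in 41 cells) in SI. Col23a1 in ICC was at 108 CPM (90.2 to 128) in LI and 70.7 (39.5 to 117) in SI. ICC had the lowest collagen total of the gates described, at 0.771% of UMIs in LI and 0.485% in SI.

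Col28a1, a collagen with von Willebrand factor domains, was highest in pericytes at a low level, with 17.1 CPM (11.5 to 24.6) in LI and 29.1 (23.3 to 35.9) in SI, against 1.25 and 2.15 in SMC. The 4 chains at 10 CPM or more in 1 library only were Col4a3 and Col6a6 as given, Col7a1, highest in SI other FB at 28.1 CPM, and Col26a1, with 12.7 CPM in LI PDGFRAhi FB and 0.805 in SI PDGFRAhi FB. The 12 chains under 10 CPM in all 8 classes of both libraries peaked at 8.32 CPM (Col4a4), 5.99 (Col22a1), 4.96 (Col25a1), 3.45 (Col17a1, the hemidesmosome collagen of epithelium), 3.13 (Col9a2), 1.72 (Col9a1), 1.40 (Col11a2), 1.18 (Col10a1), 1.12 (Col19a1), 0.822 (Col9a3), 0.754 (Col20a1) and 0.126 (Col2a1, the main cartilage chain, 1 UMI in all).

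PDGFRAhi FB were also set against the other fibroblasts pooled. Of 27 collagens at 10 CPM or more, 6 were at least 2-fold higher in PDGFRAhi FB than in those in both libraries, against 2.78% of 8496 genes: Col4a5, Col4a6, Col6a4, Col18a1, Col23a1 and Col24a1. Col8a1 and Col14a1 were at least 2-fold lower, 2 of 27 against 2.11% of genes. Col18a1 was nearly as high in Fgfr2 FB, which were among the fibroblasts pooled, as in PDGFRAhi FB. Col24a1 in both libraries and Col4a6 in SI reached 10 CPM through PDGFRAhi FB alone, so their higher level there was in part built into the count. The log2 ratio was 3.16 (3.06 to 3.27) in LI and 3.92 (3.76 to 4.08) in SI for Col6a4 and 2.35 and 4.12 for Col4a6. For Col14a1 it was -1.78 and -1.51. With the gates loosened by 1 marker, the log2 ratio was -0.25 and -0.67 for Col8a1 and -0.83 and -0.52 for Col14a1, so neither was 2-fold lower.

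Last, LI and SI grafts were set side by side, first with fibroblasts and mural cells each pooled and then within classes. The mix of classes in these pools differed between the libraries. Pericyte/SMC were 159 of 874 LI and 470 of 1485 SI mural cells. CD81 FB were 2323 of 7768 LI and 2189 of 5618 SI fibroblasts. The part of this mix in the pooled ratios was not tested. The kit of each library (3′ or 5′) is not given, so origin and chemistry cannot be told apart. Cells called male from Y-linked UMIs without Xist were 9.004% of kept LI cells and 24.3% of SI cells. The pericyte gene Rgs5 had a fibroblast log2 ratio of -3.45 for LI over SI, and its part in the collagen ratios was not tested. Of 27 collagens at 10 CPM or more in fibroblasts of 1 library, 3 were at least 2-fold higher in LI (Col4a5, Col4a6 and Col11a1), where 1.96% of 8614 genes were, and 2 were at least 2-fold higher in SI (Col6a5 and Col7a1), where 1.63% were. Of 24 in mural cells, 1 was 2-fold higher in LI (Col6a4, background 1.66%) and 1 in SI (Col14a1, background 1.75%), and both lay at the threshold, with log2 ratios of 1.03 and -1.01 and several alternative settings that left them under 2-fold. SMC held 151 of the 206 mural Col6a4 UMIs in LI and 167 of the 203 in SI. The median log2 ratio over the collagens was -0.16 in fibroblasts and 0.14 in mural cells, against -0.01 and 0.00 over all genes.

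Col4a5 in pooled fibroblasts had 163 CPM in LI and 49.1 in SI, a log2 ratio of 1.71 (1.64 to 1.78). By class the ratio was 4.36 (4.03 to 4.70) in Fgfr2 FB, 2.60 in other FB, 1.78 in SMC, 1.73 in CD81 FB, 0.87 in PDGFRAhi FB, 0.18 (-0.14 to 0.52) in Pi16 FB and -0.67 (-1.18 to -0.18) in pericytes. The LI levels in Pi16 FB and pericytes lay within the interval of the immune gate, 1.07 to 31.9 CPM. In SI, Col4a5 in every class but PDGFRAhi FB and pericyte/SMC lay within the wide interval there, 0.30 to 66.2 CPM from 1 UMI. Its partner Col4a6 had 2.34 (2.17 to 2.51) in pooled fibroblasts, with 4.65 in Fgfr2 FB. Both genes are X-linked, and among female-called cells only the fibroblast log2 ratios were 2.29 and 2.80. Col6a5 was lower in LI, at 26.3 against 74.4 CPM in pooled fibroblasts, a log2 ratio of -1.46 (-1.56 to -1.37), and its neighbour Col6a4 was higher in LI in all 6 classes at the minimum level, by 0.37 (PDGFRAhi FB) to 2.33 (pericyte/SMC). Col7a1, the anchoring fibril chain that ties epithelial basement membrane to the stroma, had 3.01 CPM in LI and 12.8 in SI fibroblasts, a log2 ratio of -1.78 (-1.995 to -1.57). Col11a1 had 15.3 and 6.47 CPM, a log2 ratio of 1.12 that came to 0.69 among female-called cells. Its direction changed with the class, from -0.69 in PDGFRAhi FB to 1.92 in Pi16 FB. Col4a6, Col7a1 and Col11a1 reached 10 CPM in 1 library alone, so for them a difference was in part built into the list.

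Smaller shifts ran through whole classes. Col1a1 was lower in LI in all 8 classes, by log2 ratios of -0.20 (PDGFRAhi FB) to -0.98 (pericyte/SMC). Col14a1 was likewise lower in all 8, from -0.24 (other FB) to -1.04 (pericytes, where the LI level of 33.1 CPM lay within the interval of the immune gate, 12.4 to 63.7 CPM), and so was Col6a3, from -0.04 (pericytes, interval -0.20 to 0.12) to -0.95 (Pi16 FB). Col12a1 changed direction with the class: it was lower in LI in PDGFRAhi FB, at 380.3 against 810.5 CPM, and higher in LI in Pi16 FB, at 244 against 76.7 CPM, and in CD81 FB, at 222 against 73.3. Col4a1 and Col4a2 differed little in pooled fibroblasts, with log2 ratios of 0.02 (-0.01 to 0.04) and -0.10 (-0.13 to -0.07). By class, Col4a1 ran from -0.28 (SMC) to 0.39 (pericytes). Col4a2 ran from -0.20 (PDGFRAhi FB) to 0.43 (pericytes).

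**Figure D5:**
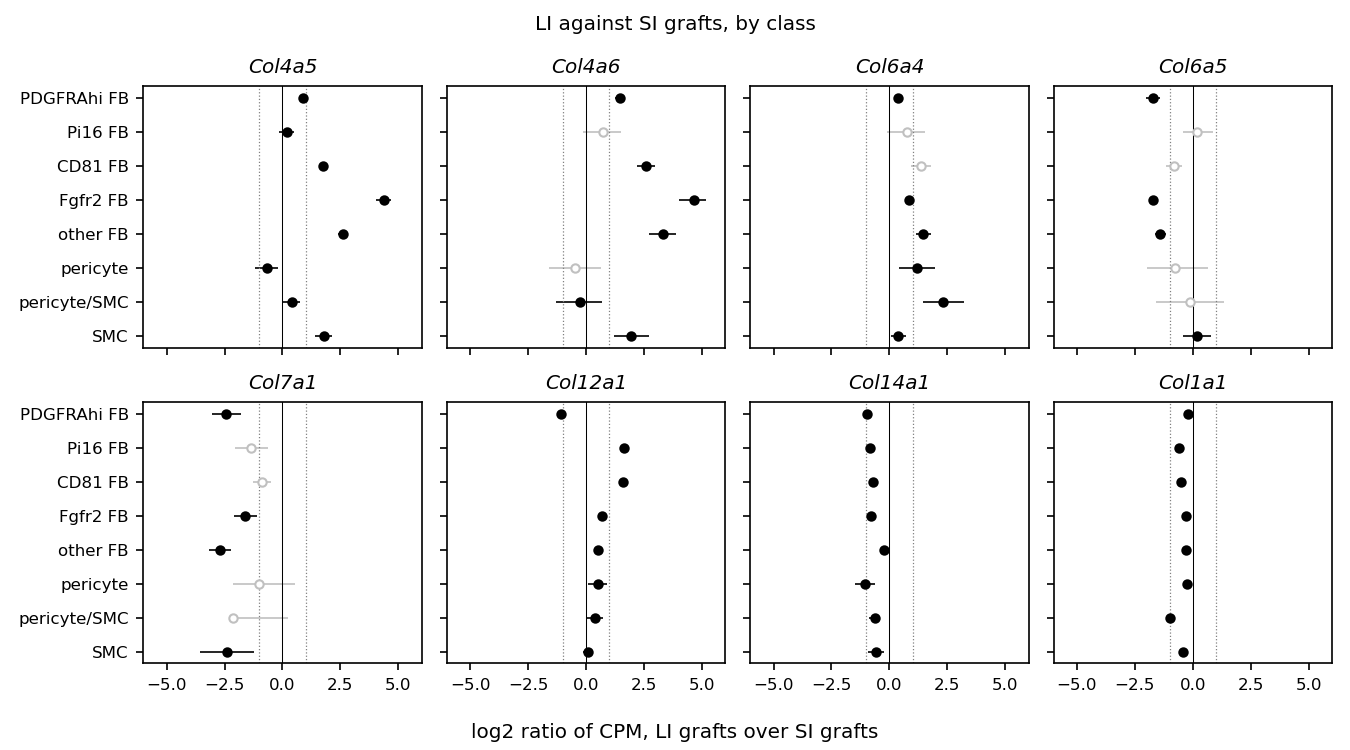
Log2 ratio of CPM (with 1 CPM added), LI grafts over SI grafts, of 8 collagen genes in 8 stromal classes, with 95% counting intervals; open grey points are classes where neither library reached 10 CPM and dotted lines mark 2-fold. Col4a5 and Col4a6 lie farthest right in Fgfr2 FB (4.36 and 4.65), Col6a5 lies left in the 3 fibroblast classes filled black, Col7a1 lies left, and Col12a1 lies left in PDGFRAhi FB and right in the other fibroblast classes.

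The machinery that makes and binds collagen was read from a list of 46 genes, of which 35 were at 10 CPM or more in fibroblasts or mural cells of each library. In both libraries 12 of the 35 were at least 2-fold higher in fibroblasts (background 5.96%) and 3 in mural cells (7.07%). All 4 genes of propeptide processing that could be compared were among the 12: Pcolce2 (log2 ratios 2.34 in LI and 4.52 in SI), Bmp1 (1.27 and 1.75), Adamts2 (1.24 and 1.23) and Pcolce (1.18 and 1.37). They cut the ends off procollagen or enhance that cut. Crosslinking enzymes were 2 of 6, Loxl1 (2.32 and 2.40) and Lox (1.75 and 1.59). Of the hydroxylases, which modify prolines and lysines in the endoplasmic reticulum, Plod2 (2.05 and 1.97), Plod1 (1.42 and 1.67) and P4ha2 (1.69 and 1.85) were higher in fibroblasts, as were the retrieval receptors Kdelr3 (1.11 and 1.73) and Kdelr2 (1.16 and 1.01).

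Mural cells had their own set. P3h2 and Itga10 reached 10 CPM in mural cells alone, and Pcolce2 in fibroblasts alone. P3h2, a prolyl 3-hydroxylase that acts on type IV collagen, had 4.22 CPM in LI fibroblasts and 34.9 in LI mural cells, a log2 ratio of -2.78 (-3.06 to -2.50), and -3.25 in SI. Among receptors, Itga1, the integrin α1 chain that favours type IV collagen, was mural, with -2.72 and -3.12, as was Itga10, with -3.20 and -2.93. Mrc2, an uptake receptor for collagen fragments, was a fibroblast gene, with 2.84 and 3.21. Between the libraries, 2 of the 35 list genes compared in fibroblasts were 2-fold higher in LI (background 1.96%) and 2 in SI (1.63%): Lox (327 CPM in LI and 124 in SI) and P4ha3 (14.7 and 4.10) were higher in LI, and Itga11 (9.97 and 27.0) and Pcolce2 (19.4 and 50.3), which is also a marker of the CD81 FB gate, in SI. P4ha3 and Itga11 reached 10 CPM in the higher library alone. Lox was also higher in LI mural cells, with a log2 ratio of 1.24 (1.03 to 1.44). Itga11, the integrin α11 chain for fibrillar collagen, was higher in PDGFRAhi FB, where it had 23.9 CPM in LI and 92.1 in SI, against 8.34 and 19.7 in the other fibroblasts.

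Over the 16 class levels (8 in each library), the gene most alike to Col1a1 in log2(CPM + 1), out of 4034 at 50 CPM or more in some class of each library, was Col1a2 (Pearson r = 0.99), followed by Fndc1 and Fam114a1 (0.99 each). For Col4a1 it was Col4a2 (0.99). For Col6a1 it was Col6a2 (0.99), then Tmem119 (0.97) and Mtch1 (0.96), and for Col15a1 it was Gm9844 (0.97), then Tmsb10 and Cdc42ep5 (0.95 each). In all 3 cases with a partner chain, the partner came first. These r values describe 8 classes in each of 2 libraries, which share depth and free RNA, and carry no test.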

How the data were processed

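Single-cell RNA-seq was performed on YFP+ MSC from SI and LI grafts, 1 library of each. The authors deposited raw counts, whole numbers of UMIs per gene and cell barcode. The submitters' processing notes name Cell Ranger (3.1.0), Seurat (3) and the mm10 build without their order, and whether filters were applied before deposit is not given in the sources used here.

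A cell was kept if it had 500 or more genes and no more than 10% of its UMIs from mitochondrial genes. A cell was placed in a class by the number of different markers of that class with at least 1 UMI (at least 4 of 8 for fibroblasts, 5 of 11 for pericytes and 5 of 10 for SMC, with subset gates of 3 or 4 markers). Cells in a pericyte, SMC or ICC gate were set apart only if they had at least 6 of the 8 fibroblast markers. Those with fewer stayed in the mural or ICC classes, also where they met the fibroblast gate. Cells in the immune or another non-stromal gate that also met the fibroblast gate were set apart. These gates count markers in place of the summed marker UMIs that had been planned, and their thresholds were set after marker counts had been seen. Cell classes were rebuilt and may differ from those of the study. No doublets were removed in the values given; an alternative removed the barcodes with the highest Scrublet scores (1071 in LI and 742 in SI).

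UMIs were summed per class and library and divided by all UMIs of that class, times 1000000 (CPM). Log2 ratios have 1 CPM added to both levels. A gene was compared where it reached 10 CPM in 1 of the groups, and called at 2-fold or more. Intervals (95%) were exact Poisson for levels and exact Clopper-Pearson for ratios. For a level of 0 UMIs the value printed is a separate floor of 3 UMIs, which lies below the upper end of the exact interval. Values by class are given for each collagen at 10 CPM or more in at least 1 class of both libraries, and the rest by their highest level. Some genes alike to Col4a1 are not reported here. With 1 library per group no test was possible. The ratio code was tested on simulated data. Alternatives covered cell filters, doublets, gates, clusters, per-cell means, the denominator, the minimum level, the pseudocount, TMM factors and female-called cells. The collagens, the list of collagen-related genes and the class markers were chosen with earlier results of these data known. Work was done in Python 3.11.15 with scanpy 1.11.5, igraph 0.11.9, scipy 1.17.1, numpy 2.4.6 and pandas 2.3.3, and in R 4.3.3 with edgeR 4.0.16, used for TMM factors only.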

Additional observations from a re-analysis of the deposited data

Results flagged for a closer look

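Col12a1, the fibril-associated type XII chain, differed between LI and SI grafts in opposite directions in 2 fibroblast classes. Its log2 ratio of LI over SI was -1.09 in PDGFRAhi FB and 1.66 in Pi16 FB, and with 1 library of each kind the difference was not tested. Among female-called cells the same log2 ratios were -1.12 and 0.98, and with TMM scaling the ratio in PDGFRAhi FB was -0.99. The ratio in PDGFRAhi FB was -0.68 with the looser gate and -1.49 with classes from clusters, and that in Pi16 FB was 2.11 with the stricter gate.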

How the results depend on the processing

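No paired analysis was possible because each group had 1 library, and for the same reason no library could be left out. The 8 counts were recomputed under 13 alternatives, and 84 of 104 values stayed within 1.5 times the count given. Without a minimum level, 43 collagens replaced 28, and with a minimum of 50 CPM 1 collagen was higher in LI fibroblasts and 1 in SI fibroblasts. The single collagen higher in LI mural cells (Col6a4) became 0 under the looser cell filter (200 genes), the looser gate, per-cell means, TMM scaling, 50 CPM as the minimum or 5 CPM as the pseudocount, after removal of the highest Scrublet scores and among female-called cells, and 3 without a minimum. With classes from clusters the count was 1, but Col6a4 was under 2-fold. The one higher in SI mural cells (Col14a1) became 0 under the stricter cell filter (5% mitochondrial UMIs), the looser or stricter gate, per-cell means or a pseudocount of 5 CPM, and 2 with clusters, no minimum or female-called cells. Of 779 recomputed log2 ratios 250 moved beyond their counting interval and 0 changed sign. The causes of these moves were not tested. The ratios were those of collagens already called at 2-fold or more, plus Col12a1 in some fibroblast classes. A change of sign was therefore unlikely from the outset, and its absence says little of other collagens. A changed minimum level cannot move a ratio, so all 60 ratios stayed the same under each such setting. The SI clusters held no Pi16 FB, so the Col12a1 ratio in that class was not recomputed there. TMM scaling moved the median log2 ratio of all genes from -0.10 to 0.03 for fibroblasts over mural cells in LI, and from 0.21 to -0.03 for PDGFRAhi FB over the other FB in SI, where collagens 2-fold higher and lower went from 9 and 3 to 9 and 5. The minimum of 10 CPM is a fixed cut and lies above the level of 3 UMIs in all 8 classes, at most 2.98 CPM (LI pericyte/SMC). Depth limits the chains near that lower level and the 41 SI ICC.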
